A study of Mus musculus with 18 samples.

Results

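Prostanoids are the lipid mediators that cyclooxygenases make from arachidonic acid, and 10 mouse genes of their synthesis and reception were described here in dorsal root ganglia (DRG), out of 18193 genes with a probe set of their own on the array. They are the cyclooxygenases *Ptgs1* and *Ptgs2*, the terminal synthases *Ptges* and *Ptgds*, the prostaglandin E2 receptors *Ptger1*, *Ptger2*, *Ptger3* and *Ptger4*, and the receptors *Ptgir* and *Ptgfr*. They were taken by name as genes of one pathway, and every probe set annotated to them alone was kept separate, because the probe sets for *Ptger1* disagree. 9 of the 10 genes had such a probe set, which gave 20 probe sets of 45037. *Ptgs1* was not analysed here.

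RNA from DRG of all spinal levels of mice was hybridised to Affymetrix GeneChip Mouse Genome arrays. Nav1.7, Nav1.8 and Nav1.9, the products of *Scn9a*, *Scn10a* and *Scn11a*, are voltage-gated sodium channels of damage-sensing neurons, and the study asked how loss of each channel alters gene expression in the ganglion. The Nav1.7 knockout (KO) mice carry a floxed *Scn9a* and Cre driven by the Advillin gene *Avil*, which acts in sensory neurons, whereas the Nav1.8 and Nav1.9 KO mice are global null mutants. KO DRG were set against DRG of littermate controls of the same line, labelled wild type, with 3 arrays in each of 6 groups and 18 arrays in all. The labels give neither the age nor the sex of the animals on the arrays (the study used adults of both sexes) and do not say whether each array held 1 animal, so p-values measure the spread between these samples only, which may be technical. Nor do they say whether the Nav1.7 littermates carried Cre or the floxed allele.

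Prostaglandin E2 is released by injured and inflamed tissue and makes nociceptors easier to excite. It acts through 4 G-protein-coupled receptors: EP1, encoded by *Ptger1*, raises intracellular calcium, EP2 and EP4 (*Ptger2* and *Ptger4*) raise cyclic AMP through Gs, and EP3 (*Ptger3*) mostly lowers it through Gi. Prostacyclin, acting on the Gs-coupled receptor encoded by *Ptgir*, sensitises nociceptors in the same way. In sensory neurons the cyclic AMP and protein kinase C branches below these receptors are known to modulate ion channels, the channel Nav1.8 among them.

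2 of the 20 prostanoid probe sets rose in Nav1.7 KO DRG, none changed in Nav1.8 KO DRG and 1 fell in Nav1.9 KO DRG. A *Ptger1* probe set was 2.61-fold higher in Nav1.7 KO than in littermate DRG, and the same probe set was 1.84-fold lower in Nav1.9 KO DRG. A *Ptger4* probe set was 1.21-fold higher in Nav1.7 KO DRG. No probe set of *Ptgs2*, *Ptges*, *Ptgds*, *Ptger2*, *Ptger3*, *Ptgir* or *Ptgfr* passed the test between KO and littermate DRG in any line. The test was limma on the deposited log2 values over all 18 arrays, with p-values adjusted over all 45037 probe sets and a threshold of 0.05.

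Of all probe sets, 2.27% passed in the Nav1.7 line (0.79% being higher in KO), 0.00666% in the Nav1.8 line and 0.242% in the Nav1.9 line (0.16% being lower in KO). At an unadjusted p under 0.05 there were 7, 3 and 3 of the 20 prostanoid probe sets in the Nav1.7, Nav1.8 and Nav1.9 lines, against 13.4%, 8.16% and 10.4% of all probe sets. KO and littermate arrays did not overlap for 7, 6 and 6 of them, against 18%, 14.1% and 15.9% of all probe sets. The median log2 difference over the 20 probe sets was 0.004, 0.032 and -0.006 in the 3 lines, beside 0, -0.009 and 0.005 over all probe sets.

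**Figure D1:**
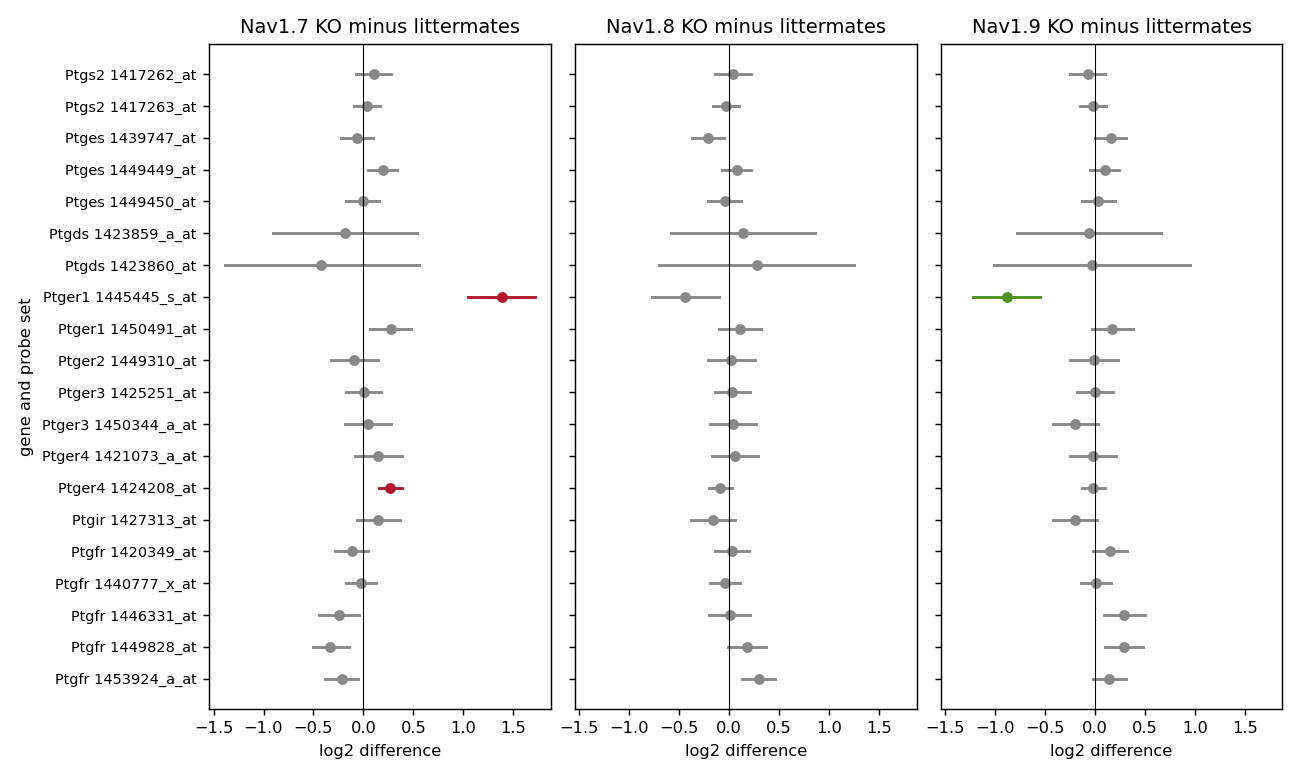
Log2 difference between KO and littermate DRG (x axis) for the 20 probe sets of the 9 measured genes (y axis), with 1 panel per line and bars for the 95% confidence interval from limma. Coloured points passed an adjusted p of 0.05 and grey points did not; *Ptger1* 1445445_s_at lies at 1.39 in Nav1.7 KO and at -0.88 in Nav1.9 KO, and the intervals of both *Ptgds* probe sets are the widest.

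The targeted genes were looked at as a check of the labels. *Scn10a* fell by 1.57 on the log2 scale in Nav1.8 KO DRG (adjusted p = 8.61e-05 from limma) and *Scn11a* fell by 1.85 in Nav1.9 KO DRG (adjusted p = 9.62e-07 from limma). The 5 *Scn9a* probe sets differed by -0.36 to -0.05 in Nav1.7 KO DRG and none passed; the position of these probe sets relative to the deleted exons is not known here, so they do not settle the label. Array medians lay between 6.33 and 6.36. Sensory neuron markers, as the mean over their list, lay between 10.98 and 11.05 in all groups. By the X-inactivation transcript *Xist*, 7 arrays were high (all 3 Nav1.7 littermates, Nav1.7 KO replicates 1 and 3, and Nav1.8 KO replicates 2 and 3) and 11 were low. All Nav1.7 littermates were therefore *Xist*-high and all Nav1.8 and Nav1.9 littermates *Xist*-low, so that *Xist* class and line cannot be told apart among the littermates. Only the Nav1.7 KO and Nav1.8 KO groups held both classes. A fit with the *Xist* class as a term takes the size of that term from these KO arrays. Between Nav1.7 littermates and other littermates it therefore does not decide between class and line, whether or not a call passes.

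The promoter of *Ptger4* is shown because *Ptger4* was the changed prostanoid gene with an entry in the RefSeq promoter table for mouse build GRCm38.p6, which held 9 of the 10 genes; *Ptger1* had none. The 250 bases upstream of the gene's start, chr15:5244188-5244437 on the minus strand, are written 5′ to 3′, with GC boxes and a CCAAT box in capitals.

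Ptger4: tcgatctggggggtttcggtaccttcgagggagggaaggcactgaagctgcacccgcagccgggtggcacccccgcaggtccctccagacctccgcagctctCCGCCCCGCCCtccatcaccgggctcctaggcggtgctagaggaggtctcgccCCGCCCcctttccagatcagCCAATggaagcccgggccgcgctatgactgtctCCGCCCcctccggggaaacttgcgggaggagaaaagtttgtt

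Searched on both strands, the window held 4 matches to the GC box CCGCCC, the first pair sharing 1 base, and 1 match to CCAAT. 32.7% of 32851 promoter windows of the same length held CCGCCC and 33.8% held CCAAT. It held 1 match to TGGAAA, the core of the NFAT5 consensus, and 18.6% of windows held this core. The full consensus given by the study also needs pyrimidines at set positions after the core. The match in this window, on the strand opposite to the printed one, has G at those positions. It is therefore a match to the core only and not to the full NFAT5 consensus. TGACGT (a cyclic AMP response element core), TGANTCA (an AP-1 site) and TATAAA were not in this window; they were in 6.47%, 6.75% and 12.4% of windows. A match describes the letters only and shows no bound factor.

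*Ptger1* gave the largest differences among the prostanoid genes, and only in 1 of its 2 probe sets, 1445445_s_at, which is slightly the dimmer. Its mean over all arrays was 5.92, at the 44.1 percentile of all probe sets, against 6.21 and the 48.2 percentile for 1450491_at. On 1445445_s_at, the Nav1.7 littermate arrays read 5.39, 5.24 and 5.75 on the log2 scale and the KO arrays 6.83, 7.04 and 6.66. Every Nav1.7 KO array lay above every array of the other 5 groups. The increase was 1.39 on the log2 scale (SE 0.159, adjusted p = 9.56e-05 from limma), the 8th largest rise of the 45037 probe sets in that line and the 84th smallest p.

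In the Nav1.9 line this probe set moved the other way. Its littermate arrays read 6.52, 6.39 and 6.05 and its KO arrays 5.24, 5.42 and 5.66. The groups did not overlap, and the difference was -0.88 (SE 0.159, adjusted p = 0.0275 from limma). All 3 Nav1.9 KO arrays lay within the range of the Nav1.7 littermates, 5.24 to 5.75, whereas the Nav1.9 littermates lay above it. The Nav1.9 call ended when littermate replicate 1 (adjusted p = 0.123 from limma), littermate replicate 2 (0.0716), KO replicate 1 (0.129) or KO replicate 2 (0.0872) of that line was left out, with the replicate number as a block (0.104) and with the line fitted alone (0.185), and the difference stayed between -1.02 and -0.78. With the Nav1.9 line fitted alone, 5 of all 45037 probe sets passed, against 109 in the main fit.

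In the Nav1.8 line the littermate arrays read 6.05, 6.07 and 5.75 and the KO arrays 5.72, 5.57 and 5.28. The groups nearly met, at 5.75 and 5.72, and the difference of -0.44 did not pass (adjusted p = 0.53 from limma). The effects themselves differed between lines. The Nav1.7 difference exceeded the Nav1.8 difference by 1.82 (SE 0.225, adjusted p = 0.000567 from limma) and the Nav1.9 difference by 2.27 (SE 0.225, adjusted p = 5.09e-05), while the Nav1.8 and Nav1.9 differences were not told apart (0.45, adjusted p = 0.607). These contrasts passed for 1.09%, 1.63% and 0.0244% of all probe sets.

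The littermate groups also differed from each other on this probe set, although the labels call all of them wild type. Nav1.7 littermates were lower than both others, with a difference of -0.50 from Nav1.8 littermates (adjusted p = 0.0376 from limma) and of -0.86 from Nav1.9 littermates (adjusted p = 0.00269). The difference of -0.36 between Nav1.8 and Nav1.9 littermates did not pass (adjusted p = 0.169). These 3 contrasts passed for 18.7%, 9.42% and 10.8% of all probe sets. Line, and any array batch that followed it, cannot be told apart here. With the *Xist* class as a term in the fit, neither of the 2 littermate calls passed (-0.21, adjusted p = 0.637, and -0.57, adjusted p = 0.171, from limma), nor did they with the replicate block (adjusted p = 0.111 and 0.0914). The *Xist* term takes its size from KO arrays, so it cannot separate class from line among these littermates. The difference from Nav1.8 littermates also failed, at adjusted p of 0.107, 0.147, 0.117 and 0.126 from limma, when replicate 1 or 2 of the Nav1.7 or replicate 1 or 2 of the Nav1.8 littermates was left out, and lay between -0.69 and -0.21 over 25 alternatives. The call between KO and littermates of the Nav1.7 line passed with the *Xist* term, and the 1 *Xist*-low Nav1.7 KO array was the highest of its group at 7.04. All Nav1.9 arrays were *Xist*-low, so the term could not change the Nav1.9 difference and does not check that call.

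The other *Ptger1* probe set, 1450491_at, differed less, and went the same way as 1445445_s_at in the Nav1.7 line only. Its means were 6.07 ± 0.203 (SD, n = 3 arrays) in Nav1.7 littermates and 6.35 ± 0.0317 in Nav1.7 KO, 6.08 ± 0.0530 and 6.19 ± 0.113 in the Nav1.8 line, and 6.2 ± 0.0898 and 6.37 ± 0.181 in the Nav1.9 line. The differences of 0.28, 0.11 and 0.17 did not pass (adjusted p = 0.191, 0.813 and 0.576 from limma). In the Nav1.7 line the groups did not overlap, at 5.85 to 6.25 in littermates and 6.32 to 6.38 in KO. In the Nav1.8 and Nav1.9 lines 1450491_at stood on the other side of 0 from 1445445_s_at. Over the 18 arrays the Pearson correlation of the 2 probe sets was 0.13, and about the group means it was -0.41.

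**Figure D2:**
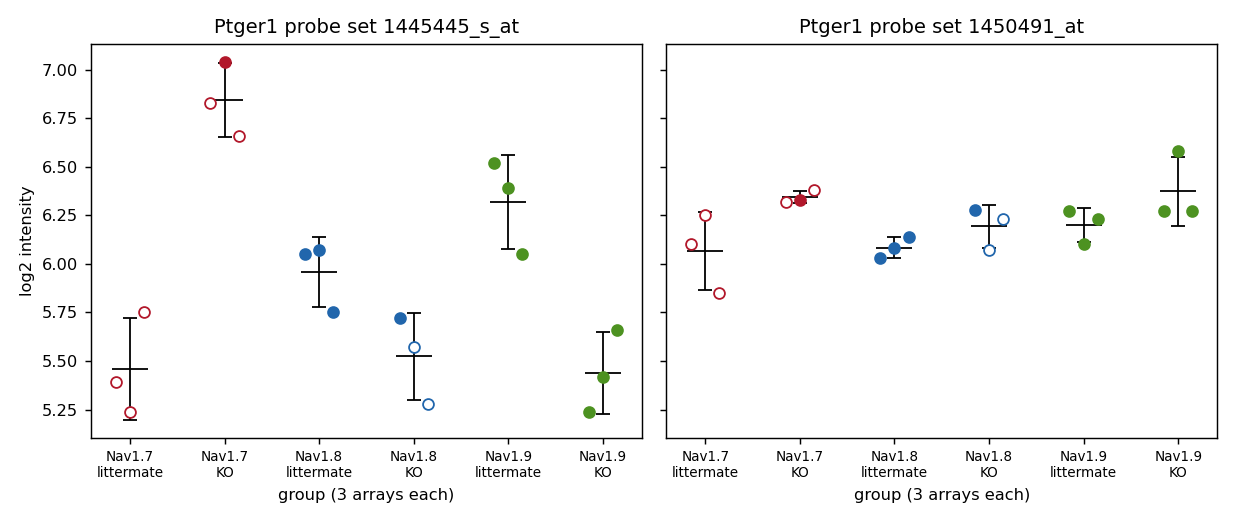
Log2 intensity (y axis) of the 2 *Ptger1* probe sets in each of the 18 arrays, by group (x axis), with the mean ± SD of 3 arrays as bars; open points are *Xist*-high arrays. On 1445445_s_at the Nav1.7 KO arrays, 6.66 to 7.04, lie above all others and the Nav1.9 KO arrays, 5.24 to 5.66, lie below their littermates. On 1450491_at the groups lie closer together, with the Nav1.7 KO arrays, 6.32 to 6.38, above their littermates.

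The gap between the probe sets was followed within each array, as 1445445_s_at minus 1450491_at. It was 0.50 ± 0.216 in Nav1.7 KO and -0.61 ± 0.464 in Nav1.7 littermates (SD, n = 3 arrays), -0.67 ± 0.247 and -0.12 ± 0.225 in the Nav1.8 line and -0.93 ± 0.290 and 0.12 ± 0.261 in the Nav1.9 line. These gaps are given as a description, with no test, because the disagreement of the probe sets was known when they were kept separate. The suffix _s_at marks a probe set that can match more than 1 transcript. The transcripts that 1445445_s_at matches were not examined here. *Ptger1* is among the genes the study listed from these arrays, so its change here is no independent evidence.

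5 genes had the pattern most like *Ptger1* 1445445_s_at over the 18 arrays, among 18192 genes by their brightest probe set: *Rasef* (Pearson r = 0.888), *Smad1* (0.881), *Jun* (0.867), *Unc5d* (0.867) and *Tac1* (0.864). The correlations share the same arrays and group differences. *Jun*, a transcription factor induced in injured sensory neurons, was the one among them that also passed in opposite directions, with differences of 0.41 in Nav1.7 KO (adjusted p = 0.00438 from limma) and -0.43 in Nav1.9 KO (adjusted p = 0.0206). On its dimmer probe set, 1417409_at, *Jun* differed by 0.96 in Nav1.7 KO (adjusted p = 9.82e-05 from limma) and by -0.59 in Nav1.9 KO (adjusted p = 0.0344). *Tac1*, the substance P precursor, rose by 0.37 in DRG of Nav1.7 KO mice (adjusted p = 5.76e-05 from limma) and differed by -0.07 in Nav1.9 KO (adjusted p = 0.602). *Rasef* and *Unc5d*, which encodes a netrin receptor, rose by 0.65 and 0.86 in Nav1.7 KO DRG and did not pass in the Nav1.9 line. *Atf3*, a transcription factor switched on by axon injury and chosen here after its values were seen, read 10.35, 8.97 and 9.41 in Nav1.9 littermates and 7.89, 7.59 and 7.74 in Nav1.9 KO arrays (difference -1.83, adjusted p = 0.00653 from limma). The Nav1.9 littermates were thus above the Nav1.9 KO arrays in *Atf3*, *Jun* and *Ptger1* alike. In Nav1.7 KO arrays, where *Ptger1* 1445445_s_at was highest, the *Atf3* difference of 0.58 did not pass (adjusted p = 0.352 from limma). The groups did not overlap, at 7.71 to 8.41 in Nav1.7 KO and 7.39 to 7.64 in littermates. In the Nav1.8 line *Atf3* was lower in KO, also with no overlap, and the difference of -0.70 did not pass (adjusted p = 0.537 from limma). The *Atf3* mean of 8.11 in Nav1.7 KO arrays lay below the 8.47 of Nav1.8 littermates. The part of *Atf3* and *Jun* in the *Ptger1* result was not tested.

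*Ptger4*, the Gs-coupled EP4 receptor, rose in Nav1.7 KO DRG on its brighter probe set. On 1424208_at the Nav1.7 littermate arrays read 9.46, 9.29 and 9.32 and the KO arrays 9.71, 9.65 and 9.53. The 3 KO arrays were the highest of all 18, and the 15 others lay between 9.24 and 9.46. The increase was 0.27 on the log2 scale (SE 0.0544, adjusted p = 0.0112 from limma), the 1009th largest rise of the line. Differences of -0.09 and -0.02 in the Nav1.8 and Nav1.9 lines did not pass (adjusted p = 0.706 and 0.943 from limma).

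The Nav1.7 difference for *Ptger4* exceeded the Nav1.8 difference by 0.36 (adjusted p = 0.0292 from limma), and the excess of 0.29 over the Nav1.9 difference did not pass (adjusted p = 0.0716). The rise in Nav1.7 KO DRG no longer passed without Nav1.7 littermate replicate 2 (adjusted p = 0.0639 from limma), littermate replicate 3 (0.0553) or KO replicate 1 (0.0622), or with the line fitted alone (0.205). With the Nav1.7 line fitted alone, 285 of all 45037 probe sets passed, against 1021 in the main fit. On the dimmer probe set 1421073_a_at the difference was 0.15 (adjusted p = 0.602 from limma), and the groups overlapped. Nav1.7 littermates were 0.45 above Nav1.8 littermates on it (adjusted p = 0.00878 from limma), which did not pass with the *Xist* class as a term (adjusted p = 0.123) or with the replicate block (0.0696). As the mean of both probe sets, *Ptger4* differed by 0.21 in Nav1.7 KO DRG and did not pass (adjusted p = 0.123 from limma). The 2 *Ptger4* probe sets correlated at 0.66 over the arrays and at 0.47 about the group means.

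The genes most like *Ptger4* 1424208_at over the arrays were *Kcnv1*, a silent potassium channel subunit (Pearson r = 0.903), *Zfp386* (0.891), *Bhlhb9* (0.885), *Sema4f* (0.881) and *Epha5*, an ephrin receptor (0.871). *Kcnv1*, *Bhlhb9* and *Epha5* rose in Nav1.7 KO DRG, by 0.73, 0.22 and 0.77 (adjusted p = 3.42e-05, 0.0128 and 1.44e-05 from limma), whereas differences of 0.18 for *Zfp386* and 0.19 for *Sema4f* did not pass.

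Macrophages also express EP receptors, and their markers moved with the Nav1.7 groups. The mean over 13 macrophage genes lay between 6.99 and 7.34 in Nav1.7 KO arrays and between 6.66 and 6.95 in littermates, with no overlap; 1 of these genes, *Adgre1*, passed. In the Nav1.8 line the ranges were 7.10 to 7.57 in KO and 7.24 to 7.34 in littermates, and in the Nav1.9 line 7.07 to 7.20 and 7.17 to 7.32. The sensory neuron list lay between 10.98 and 11 in Nav1.7 KO arrays and between 11.01 and 11.05 in their littermates, and within it *Tac1* and *Trpv1* rose while *Avil* and *Pou4f1* fell. *Avil* also drives Cre in the Nav1.7 KO mice, and the part of the Cre allele in its value was not tested. Nor was the part of any of these macrophage or neuron markers in the *Ptger1* and *Ptger4* values. In RNA from a whole ganglion, more cells of a type and more RNA per cell cannot be told apart.

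The other prostaglandin E2 receptors showed no change that passed. *Ptger2* (1449310_at) lay between 6.61 and 7.30 over all arrays, with differences of -0.09, 0.02 and -0.01 in the Nav1.7, Nav1.8 and Nav1.9 lines. The confidence intervals of these differences reached no further than 0.32 from 0. *Ptger3*, the Gi-coupled EP3 receptor, lay between 5.04 and 5.61 on 1425251_at and between 6.83 and 7.43 on 1450344_a_at. Its largest difference, -0.20 on 1450344_a_at in the Nav1.9 line, had no overlap between groups (7.13 to 7.29 in littermates and 6.99 to 7.04 in KO) and did not pass (adjusted p = 0.564 from limma). On 1425251_at the Nav1.7 littermates were 0.27 above the Nav1.8 littermates (adjusted p = 0.0308 from limma). This did not pass with the *Xist* class as a term (adjusted p = 0.205) or without replicate 1 or 2 of either group (0.0535 to 0.153).

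*Ptgfr*, the Gq-coupled receptor for prostaglandin F2α, had 5 probe sets, none of which passed between KO and littermate DRG. As the mean of the 5 probe sets it did pass in Nav1.7 KO DRG, with a difference of -0.18 (adjusted p = 0.0489 from limma). Their differences in Nav1.7 KO DRG were all below 0: -0.11, -0.02, -0.24, -0.33 and -0.21 for 1420349_at, 1440777_x_at, 1446331_at, 1449828_at and 1453924_a_at. In Nav1.9 KO DRG they were all above 0, at 0.15, 0.01, 0.29, 0.29 and 0.14. The smallest adjusted p was 0.0691, for 1449828_at in the Nav1.7 line. There the littermate arrays read 4.69, 4.95 and 4.81 and the KO arrays 4.61, 4.46 and 4.40.

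On 1449828_at the Nav1.9 littermates read 4.51, 4.52 and 4.54 and the KO arrays 4.81, 4.96 and 4.67, which did not pass either (0.29, adjusted p = 0.224 from limma). The difference between the lines did pass: the Nav1.7 minus the Nav1.9 difference was -0.62 (adjusted p = 0.0171 from limma). This probe set is dim, with a mean of 4.51 at the 20.6 percentile of all probe sets, and its signal over background is not known. On 1453924_a_at the Nav1.7 minus the Nav1.8 difference was -0.51 (adjusted p = 0.0292), which no longer passed with the *Xist* class as a term (adjusted p = 0.373), with the replicate block (0.0733) or without any 1 of 8 arrays of these 2 lines (0.0531 to 0.0874). Over both contrasts and the third pair of lines, 4 of the 20 prostanoid probe sets differed in their KO effect between some pair of lines, against 2.04% of all probe sets.

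**Figure D3:**
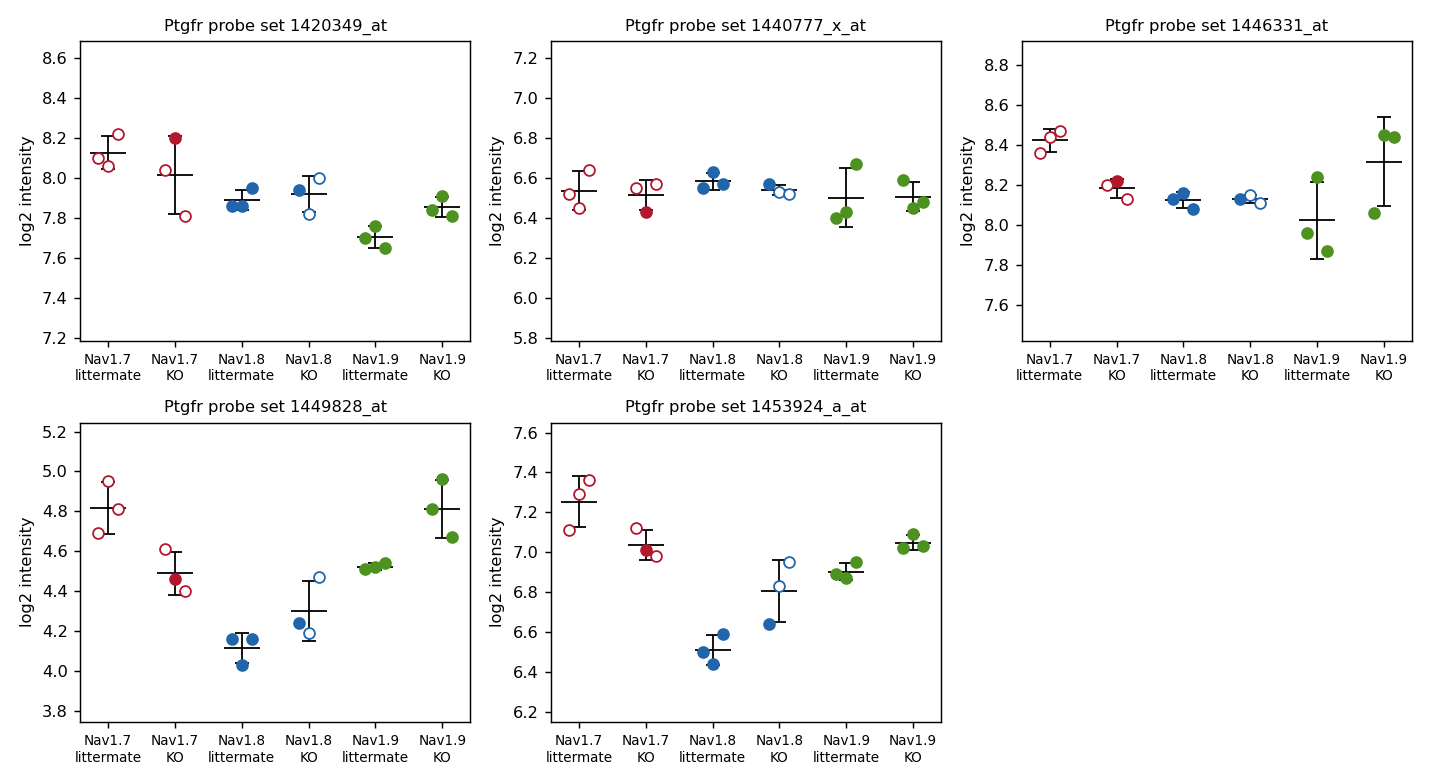
Log2 intensity (y axis, spanning the same width in each panel) of the 5 *Ptgfr* probe sets in each of the 18 arrays, by group (x axis), with the mean ± SD of 3 arrays as bars; open points are *Xist*-high arrays. On 1449828_at and 1453924_a_at the Nav1.7 littermates lie highest among the littermates and the Nav1.8 littermates lowest, and KO means lie below littermate means in the Nav1.7 line and above them in the others.

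For *Ptgfr* the littermate groups stood further apart than KO and littermates of a line. On 1453924_a_at the Nav1.7 littermates read 7.11, 7.29 and 7.36 and the Nav1.8 littermates 6.50, 6.44 and 6.59, a difference of 0.74 (adjusted p = 1.7e-05 from limma). On 1449828_at these groups differed by 0.70 (adjusted p = 9.25e-05). Both passed with the *Xist* class as a term (0.60, adjusted p = 0.00604, and 0.63, adjusted p = 0.0142, from limma). This does not separate class from line, because the term takes its size from KO arrays. The 2 probe sets correlated at 0.89 over the arrays and at 0.68 about the group means. Of the 5 *Ptgfr* probe sets, 1440777_x_at, whose suffix marks possible cross-hybridisation, did not differ between any littermate groups. Of all 20 prostanoid probe sets, 9, from 6 genes, differed between some pair of littermate groups, against 25.7% of all probe sets.

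*Ptgir*, the prostacyclin receptor, had 1 probe set, 1427313_at, which lay between 9.85 and 10.40. Nav1.7 littermates read 10.06, 9.88 and 10.07 and KO arrays 10.13, 10.23 and 10.12, so that the groups did not overlap, but the difference of 0.15 did not pass (adjusted p = 0.569 from limma). In the Nav1.8 and Nav1.9 lines the differences were -0.16 and -0.20 (adjusted p = 0.717 and 0.52 from limma) and the groups overlapped.

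On the synthesis side, no probe set passed between KO and littermate DRG. *Ptgs2*, the inducible cyclooxygenase, read 3.64 to 4.20 on 1417262_at and 3.21 to 3.49 on 1417263_at, with mean signals at the 7.46 and 1.35 percentile of all probe sets. Without detection calls, it is not known whether such signals exceed background, and a change in *Ptgs2* may not be visible on these arrays. Differences lay between -0.07 and 0.11. The Nav1.9 littermates were above the other littermates on 1417262_at, at 3.89, 3.94 and 4.20 against 3.64 to 3.73 (adjusted p = 0.0207 against the Nav1.7 and 0.025 against the Nav1.8 littermates, from limma). Neither passed with the replicate block (adjusted p = 0.299 and 0.372) or without Nav1.9 littermate replicate 3 (0.0991 and 0.111), and the former did not with the *Xist* term (0.147). The former also failed without Nav1.7 littermate replicate 1 (0.0514) or 3 (0.0749), and the latter without Nav1.8 littermate replicate 1 (0.0932) or 2 (0.0574).

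*Ptges*, the microsomal prostaglandin E synthase that works downstream of *Ptgs2*, had 3 probe sets between 5.83 and 6.77. The largest difference was -0.21 on 1439747_at in Nav1.8 KO DRG, where littermates read 6.57, 6.49 and 6.35 and KO arrays 6.19, 6.32 and 6.27 (adjusted p = 0.526 from limma). On 1449449_at the Nav1.7 KO arrays, at 6.17, 6.19 and 6.19, lay above the littermates, at 6.09, 6.05 and 5.83 (0.20, adjusted p = 0.188). The 3 pairs of *Ptges* probe sets correlated at 0.03 to 0.21 over the arrays and at 0.30 to 0.45 about the group means.

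*Ptgds*, the lipocalin-type prostaglandin D synthase known from leptomeninges and glia, varied most of all prostanoid genes within a group. On 1423859_a_at the Nav1.7 littermates read 12.58, 12.25 and 13.63 and the KO arrays 12.42, 12.13 and 13.36. The Nav1.8 arrays were close together, at 13.65, 13.41 and 13.44 in littermates and 13.67, 13.67 and 13.58 in KO. Nav1.9 littermates read 13.21, 13.69 and 13.56 and Nav1.9 KO arrays 14.11, 12.96 and 13.21. The pooled SD within groups was 0.480 here and 0.651 on 1423860_at, at the 99.6 and 99.8 percentile of all probe sets, and the 2 probe sets correlated at 0.98 over the arrays and about the group means alike. The KO differences of -0.18, 0.14 and -0.06 on 1423859_a_at had confidence intervals reaching from -0.91 to 0.86. On 1423860_at they were -0.42, 0.28 and -0.03, with intervals reaching from -1.39 to 1.25. There the Nav1.8 groups did not overlap, at 11.39 to 11.64 in littermates and 11.72 to 11.85 in KO. None of these differences passed, and changes within these intervals could have been missed.

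The arrays in which *Ptgds* was high were also high in markers of endothelium and pericytes and of fibroblasts and meninges. The most alike of 18192 genes, a comparison chosen after the values were seen, were *Slc6a20a* (Pearson r = 0.952), *Aldh1a2*, a retinoic acid synthase of the meninges (0.939), *Atp13a5* (0.934), *Ranbp3l* (0.927) and *Prg4* (0.92). With the mean over the fibroblast and meninges list, which holds *Aldh1a2*, *Ptgds* 1423859_a_at correlated at 0.73, with endothelium and pericytes at 0.78, with Schwann cells and myelin at -0.04, with satellite glia at 0 and with sensory neurons at 0.12. On 1423860_at the correlation was 0.70 with fibroblasts and meninges and 0.83 with endothelium and pericytes. The part of tissue carried along with the ganglia in the *Ptgds* values was not tested.

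**Figure D4:**
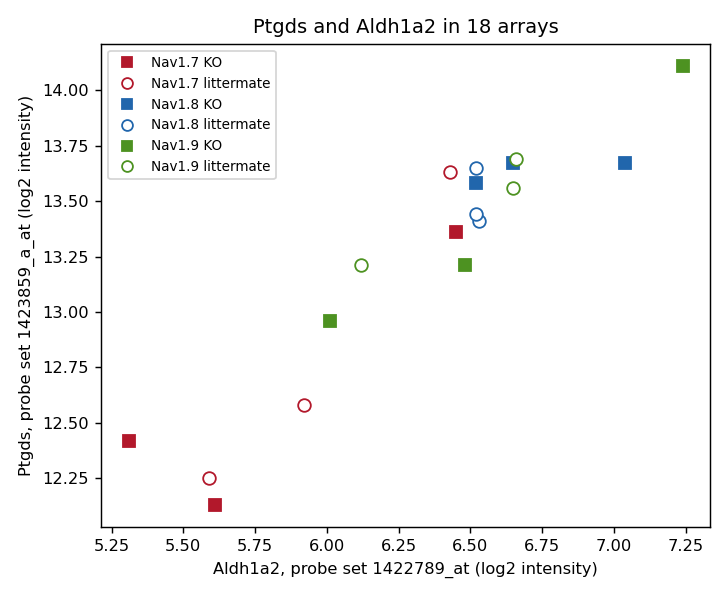
Log2 intensity of *Ptgds* 1423859_a_at (y axis) against *Aldh1a2* 1422789_at (x axis), with 1 point for each of the 18 arrays, squares for KO and open circles for littermates. The points rise together (Pearson r = 0.939), KO and littermate arrays are mixed along the slope, and 4 arrays of the Nav1.7 line lie lowest.

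Further genes around the 10 were taken as 7 lists of 94 genes, 85 of them measured by 207 probe sets. In Nav1.7 KO DRG 9 probe sets of these lists passed, 4.35% of them against 2.27% of all probe sets, in 2 genes that rose and 4 that fell. In Nav1.8 and Nav1.9 KO DRG none passed. At an unadjusted p under 0.05 from limma there were 38, 26 and 23 in the Nav1.7, Nav1.8 and Nav1.9 lines, or 18.4%, 12.6% and 11.1% of the 207, against 13.4%, 8.16% and 10.4% of all probe sets. No gene passed in any line among 13 measured genes of arachidonic acid release, 8 other prostanoid synthases, 4 other receptors and partners, 7 genes of prostanoid breakdown and transport, and 11 leukotriene and lipoxygenase genes. Nearest to the threshold in Nav1.7 KO was *Pla2g4c*, a cytosolic phospholipase (0.21, adjusted p = 0.0812 from limma). *Cbr1*, a carbonyl reductase that acts on prostaglandins, differed by 0.20 (adjusted p = 0.10), and *Hpgd*, which inactivates prostaglandin E2, by 0.43 on 1 of 2 probe sets (adjusted p = 0.132). In Nav1.9 KO DRG the smallest adjusted p of these lists was that of the leukotriene B4 receptor *Ltb4r1* (-0.28, adjusted p = 0.133).

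All 6 genes that passed belong to the signalling below the receptors, and the median over the 98 probe sets of G proteins and cyclic AMP signalling was 0.001. Of its 29 measured genes, *Adcy7* and *Adcy8*, which are adenylyl cyclases, rose in Nav1.7 KO DRG. *Adcy8* (1418754_at) read 7, 6.95 and 6.98 in littermates and 7.55, 7.41 and 7.42 in KO arrays (0.48, adjusted p = 0.013 from limma). *Adcy7* rose by 0.43 on 1450065_at and by 0.40 on 1456307_s_at (adjusted p = 0.0124 and 0.0153), though not on the third of its probe sets. With the line fitted alone neither *Adcy7* probe set passed (adjusted p = 0.145 and 0.208 from limma).

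The regulatory and catalytic subunits of protein kinase A that passed all fell in Nav1.7 KO DRG. *Prkar2b* fell on all 3 of its probe sets, by 0.43, 0.39 and 0.29 on the log2 scale (adjusted p = 0.0227, 0.0146 and 0.0271 from limma), and on 1438664_at the KO arrays read 11.67, 11.35 and 11.75 against 11.96, 12.02 and 11.96 in littermates. None of the 3 passed with the line fitted alone (adjusted p = 0.0598, 0.204 and 0.19, in the same order) or with the replicate block (0.0633, 0.0581 and 0.103), and the first and last did not with the *Xist* term (0.0573 and 0.0592). *Prkacb*, a catalytic subunit, fell by 0.25 on 1 of 3 probe sets (adjusted p = 0.015), which did not pass with the line alone (0.195) or the block (0.0847). *Prkar1a* fell by 0.18 on 1 of 3 (adjusted p = 0.0439), a call lost when any of 17 single arrays was left out (adjusted p of 0.0517 to 0.176), with the line alone (0.271), the block (0.107), the *Xist* term (0.0696) and array weights (0.0603).

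The largest change was that of *Prkcq*, protein kinase C theta, among 13 measured genes of phospholipase C and protein kinase C. On 1426044_a_at littermates read 9.27, 9.27 and 9.16 and Nav1.7 KO arrays 8.58, 8.19 and 8.25, a difference of -0.89 (adjusted p = 4.77e-05 from limma) and a call that held whichever array was left out. In the analysis of variance on the 6 arrays of the line none of the 9 probe sets passed (adjusted p of 0.131 to 0.427). Of all 45037 probe sets, 7 passed in that setting, against 1021 in the main fit. In Nav1.8 and Nav1.9 KO DRG *Prkcq* differed by 0.07 and 0.10. Without Nav1.7 littermate replicate 2 no *Adcy7*, *Adcy8*, *Prkar2b* or *Prkacb* probe set passed (adjusted p of 0.0544 to 0.104), and without Nav1.7 KO replicate 1 *Adcy7* and *Adcy8* did not (0.054 to 0.0657). Without Nav1.7 KO replicate 2, *Prkacb* (0.079) and 2 of the 3 *Prkar2b* probe sets (0.11 and 0.12) did not pass, and the latter 2 also failed without littermate replicate 1 (0.0862 and 0.0738). Without littermate replicate 3, *Prkar2b* 1456475_s_at did not pass (0.0578).

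**Figure D5:**
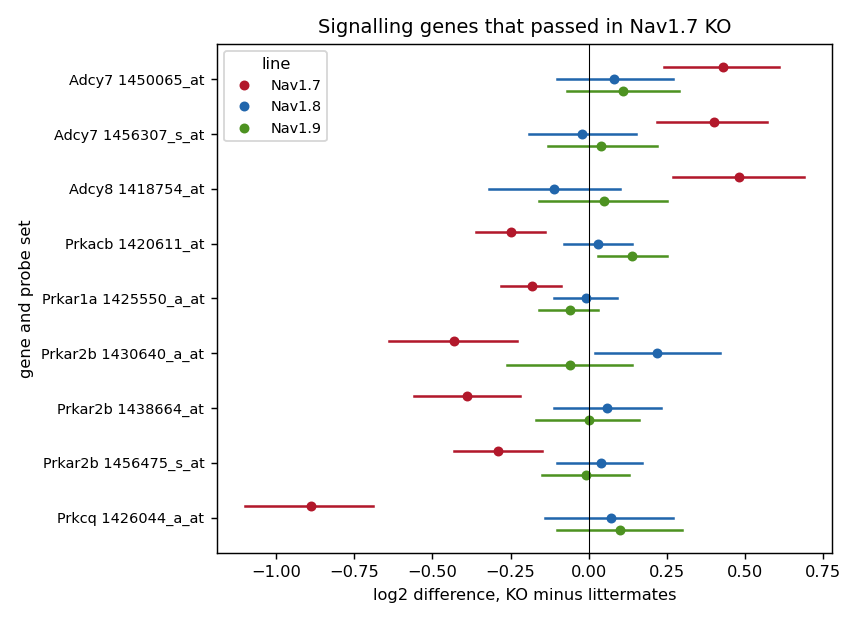
Log2 difference between KO and littermate DRG (x axis) for the 9 probe sets of prostanoid receptor signalling that passed in Nav1.7 KO DRG (y axis), in the 3 lines by colour, with bars for the 95% confidence interval from limma. In Nav1.7 KO DRG *Adcy7* and *Adcy8* lie at 0.40 to 0.48 and the kinase genes between -0.89 and -0.18, while no probe set passed in the Nav1.8 or Nav1.9 line.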

How the data were processed

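The deposited values, 1 for each probe set on each array, are log2 intensities that came from the authors' use of Affymetrix Expression Console (version not given). How probes were summarised and arrays normalized is not given in the sources used here, and no detection calls were used. The log2 unit was read from the values. Groups came from sample titles and genotype labels, not from the source names, which name littermate controls throughout. After removal of 64 control probe sets, the platform annotation gave 34945 probe sets 1 gene symbol and 932 several, and 9160 are not listed in it.

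limma 3.58.1 (R 4.3.3; lmFit and eBayes, 6 group means, no covariate, 12 residual and 4.02 prior degrees of freedom) was fitted to all 45037 probe sets, with Benjamini-Hochberg adjustment and a threshold of 0.05, after tests on simulated data. No brightness filter was applied; 15 of the 20 probe sets lie above the 40th percentile. The number of arrays limits the precision.

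The genes, lists and tests were chosen with earlier results of these data known. Named genes are all probe sets of the 10 genes, listed pathway genes that passed or otherwise at most the 2 with the smallest p per list and line, the targeted genes and the 5 genes most like each changed probe set. Alternatives were the lines fitted one by one, arrays quantile normalized or median centred, the brightness filter, the brightest probe set or the mean per gene, probe sets that may cross-hybridise removed, eBayes with trend and robust options, weights per array, blocking on replicate number, *Xist* class as a term, analysis of variance, the thresholds of the study (unadjusted p under 0.01 and fold change over 1.5) and removal of each array in turn. 1 gene of the naming rule is not reported here.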

Additional observations from a re-analysis of the deposited data

Results flagged for a closer look

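In 5 cases the difference between KO and littermate DRG itself differed between lines (limma, adjusted p under 0.05). For *Ptger1* 1445445_s_at the Nav1.7 difference exceeded the Nav1.8 difference by 1.82 and the Nav1.9 difference by 2.27. Both passed in each of the 25 alternatives that hold them with an adjusted p (highest adjusted p = 0.0236 and 0.00271 from limma). For *Ptger4* 1424208_at it exceeded the Nav1.8 difference by 0.36, and this was lost in 10 of 27 alternatives. For *Ptgfr* 1453924_a_at the Nav1.7 minus the Nav1.8 difference was -0.51, lost in 10 of 26. For *Ptgfr* 1449828_at the Nav1.7 minus the Nav1.9 difference was -0.62, which passed in each of the 25 alternatives that hold it (highest adjusted p = 0.047 from limma). The brightness filter and the settings with 1 value per gene do not hold this dim probe set, whose mean signal lies at the 20.6 percentile. Each of these probe sets but that of *Ptger4* also differed between littermate groups, so a difference between lines holds the level of the littermates as well as that of the KO arrays.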

How the results depend on the processing

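The count of prostanoid probe sets that passed in Nav1.7 KO DRG, 2, became 1 with each line fitted alone, with the brightest probe set of each gene, without probe sets ending in _x_at or _s_at and at the thresholds of the study, 0 in the analysis of variance, and 1 to 3 when an array was left out, and with the mean probe set of a gene it was 2 but held *Ptgfr* in place of *Ptger4*; the 3rd, *Ptgfr* 1449828_at, passed without Nav1.8 KO replicate 3 (adjusted p = 0.0487 from limma). The count of 1 in Nav1.9 KO became 0 with the line alone, the brightest or the mean probe set of a gene, without _x_at or _s_at probe sets, with the replicate block and in the analysis of variance, and 0 to 1 without an array. The 4 probe sets whose KO effect differed between lines became 2 with the brightest or mean probe set, the block, the *Xist* term and the thresholds of the study, and 2 to 5 without an array. The 9 that differed between littermate groups became 2, 4, 5, 5 and 3 under these, in that order, and 7 to 10 without an array. In Nav1.8 KO 0 passed throughout. Of 1746 recomputed values between KO and littermates, 14 lost a call, 1 gained one and none with a call changed direction; 55 without a call changed sign. *Ptger1* 1445445_s_at in Nav1.7 KO stayed between 1.28 and 1.53 in the 27 alternatives that hold it with an adjusted p. There it lost its call in the analysis of variance only (adjusted p = 0.174). That setting passed 7, 2 and 0 of all 45037 probe sets in the Nav1.7, Nav1.8 and Nav1.9 lines. The fit of each line alone passed 285, 1 and 5, and the main fit 1021, 3 and 109. As the mean of both probe sets *Ptger1* rose by 0.83 (adjusted p = 8.09e-06 from limma). With the brightest probe set of each gene, or without _x_at or _s_at probe sets, *Ptger1* did not pass. Whether replicate numbers pair KO and littermate arrays is not known here. In the Nav1.7 line deviations of same-numbered arrays correlated at 0.01, 0.18 and 0.24, and those of different numbers at -0.24 to 0.06. The ranges were -0.08 to 0.27 and -0.24 to 0.19 in the Nav1.8 line, and -0.12 to -0.01 and -0.2 to 0.22 in the Nav1.9 line. The block may therefore follow a pairing or share a number only. The cause of the changes between settings was not tested, except that settings with 1 value per gene or without some probe sets hold fewer to count. Signal over background is not known, which limits *Ptgs2* most.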
